A study of Homo sapiens with 6 samples.

Results

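The WNT signalling genes described here are 37 of the 14884 named genes measured on Affymetrix human gene arrays in clones of H9, an established human embryonic stem cell line. They were chosen by gene symbol, as numbered WNT, FZD and SFRP genes, DKK1 to DKK4, and a fixed set of receptors, transduction components, feedback regulators and ligand-handling enzymes of the pathway. Each of the 37 genes had 1 array row. WNT2 was the sole ligand with a named row, and the other WNT genes, PORCN, CTNNB1, TCF7, TCF7L1 and TCF7L2 were not analysed here. Total RNA came from 6 samples, 2 per group. The gamma_ON clones carried histone H2A.X with the substitution S139E, which puts a glutamate in place of the serine that is phosphorylated in γH2A.X. In the gamma_OFF clones the H2A.X had the substitutions T136A and S139A, which put alanine at both positions, and the CTRL clones carried eGFP without H2A.X. All 3 vectors were lentiviral, used the EF1α promoter and co-expressed eGFP, and no group received H2A.X without a substitution. Transduced cells were sorted for GFP and the surface antigen TRA-1-60, plated singly on mouse embryonic fibroblast feeders, and expanded from colonies in feeder-conditioned medium supplemented with bFGF at 8 ng/ml. Whether the 2 samples of a group were separate clones or cultures is not stated in the labels, so every p-value reflects only how far these samples were spread, and that spread may be technical.

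WNT proteins are secreted lipid-modified ligands that bind Frizzled receptors together with the co-receptors LRP5 and LRP6. Binding disables a complex of AXIN and APC that marks β-catenin for destruction, and β-catenin then enters the nucleus and activates genes through LEF and TCF factors. Several of those genes, among them AXIN2, NKD1, RNF43, ZNRF3, SP5 and members of the DKK family, encode proteins that dampen the signal. In human pluripotent stem cells the pathway is known for driving entry into mesoderm and endoderm fates.

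Promoter sequence is shown for 3 genes: DKK1 and LEF1, whose levels differed between the H2A.X vectors, and SP5, whose window held the most matches to a LEF/TCF motif. The letters searched were CTTTGAT and CTTTGAA on both strands, and the 2 motifs share their first 6 letters, so a single site cannot match both on 1 strand. RefSeq windows of GRCh38.p14 reaching from 250 bases before to 50 bases after a gene's start were matched for 21 of the 37 genes, in 24 windows. The motif stood in the windows of 2 of these genes, SP5 and DKK1, or 8.33% of the 24 windows. It stood in 5.61% of the windows of genes tested and in 6.86% of all 35116 windows of that length. Windows of the 37 genes were limited to the standard chromosomes, whereas these other shares were taken without that limit. Read along the gene, the matches began 148, 109 and 84 bases before the SP5 start and 95 bases before the DKK1 start. The SP5 matches at 148 and 84 were on the opposite strand and so appear below as TTCAAAG. The LEF1 window held no match, which says only that these letters are not in this window. The 250 bases before each start follow, with matches in capitals, for SP5 at chr2:170715087-170715336 on the plus strand, DKK1 at chr10:52314031-52314280 on the plus strand and LEF1 at chr4:108166302-108166551 on the minus strand, each written 5′ to 3′ along the gene.
SP5: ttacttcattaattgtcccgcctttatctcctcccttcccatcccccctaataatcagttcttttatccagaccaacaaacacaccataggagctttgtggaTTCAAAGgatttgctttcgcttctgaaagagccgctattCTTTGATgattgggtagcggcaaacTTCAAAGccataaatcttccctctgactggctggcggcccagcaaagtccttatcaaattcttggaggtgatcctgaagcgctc
DKK1: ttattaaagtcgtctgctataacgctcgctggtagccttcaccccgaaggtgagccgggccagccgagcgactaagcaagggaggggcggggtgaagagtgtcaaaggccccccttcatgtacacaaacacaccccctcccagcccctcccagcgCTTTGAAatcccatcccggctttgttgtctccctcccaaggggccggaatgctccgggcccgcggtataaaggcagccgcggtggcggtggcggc
LEF1: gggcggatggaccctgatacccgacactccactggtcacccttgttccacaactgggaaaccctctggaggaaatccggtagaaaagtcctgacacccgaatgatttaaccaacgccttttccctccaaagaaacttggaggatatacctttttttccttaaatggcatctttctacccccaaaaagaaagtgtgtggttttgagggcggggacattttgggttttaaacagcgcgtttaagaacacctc

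Values are the log2 expression levels that the authors deposited, and precision is limited by having 2 arrays a group. Over the 37 WNT genes every array correlated best with its own replicate, whereas over all genes gamma_OFF replicate 1 was nearest gamma_ON replicate 2 (r = 0.987). The median absolute difference between replicates in the 37 genes was 0.11 in gamma_ON, 0.22 in gamma_OFF and 0.12 in CTRL on the log2 scale. The SD of log2 levels over all genes was 1.81 and 1.76 on the gamma_ON arrays, 1.70 and 1.64 on the gamma_OFF arrays, and 1.76 and 1.78 on the CTRL arrays. Markers of pluripotent cells (9 of 10 measured) had mean log2 levels of 10.47 and 10.42 in gamma_ON, 10.48 and 10.55 in gamma_OFF, and 10.21 and 10.37 in CTRL. Endoderm markers (9 of 10 measured) averaged 9.49 and 9.56 in gamma_ON, 7.81 and 7.84 in gamma_OFF, and 8.34 and 8.06 in CTRL. These list means set all 3 groups apart, but in gamma_OFF 8 of the 9 were lower than in CTRL and 1 was higher, by 1.02. Fibroblast markers (5 of 10 measured) averaged 7.69 and 7.63 in gamma_ON, 7.38 and 7.24 in gamma_OFF, and 7.67 and 7.49 in CTRL, and neuroectoderm markers (10 of 10 measured) averaged 7.71 and 7.72 in gamma_ON, 7.69 and 7.76 in gamma_OFF, and 8.04 and 7.98 in CTRL. No marker was listed at 0. In bulk RNA, fewer cells of a type and less RNA per cell cannot be told apart, and the part of these markers in the results on WNT genes was not tested.

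Setting the H2A.X vectors against each other and against eGFP compares this pathway between a mimicked phosphorylation site, a removed site and no added H2A.X. Against CTRL, a change of the site cannot be told apart from added H2A.X. In no comparison can it be told apart from differences between clones, and gamma_OFF also changes T136. The differences were tested with limma over all 14884 genes, and a gene was called at a Benjamini-Hochberg adjusted p under 0.05. Between gamma_ON and CTRL, 1 of the 37 WNT genes was called, the inhibitor DKK4, which was higher in gamma_ON. Among all genes 1.55% were called in this comparison, 0.739% higher and 0.806% lower. Between gamma_OFF and CTRL, 2 WNT genes were called, the ligand transporter WLS and the co-receptor LRP6, and both were lower in gamma_OFF, where 8.85% of all genes were called, 2.77% higher and 6.08% lower. Between gamma_ON and gamma_OFF, 7 WNT genes were called against 5.99% of all genes. WLS, LGR5, DKK1, DKK4, LEF1 and RNF43 were higher in gamma_ON than in gamma_OFF, where 3.98% of all genes were called higher, and FZD7 was lower, where 2.02% were called lower. In percent of the 37 members, the called genes made up 2.7%, 5.41% and 18.9% in these 3 comparisons. The comparisons share arrays, so their counts are not independent of each other.

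**Figure D1:**
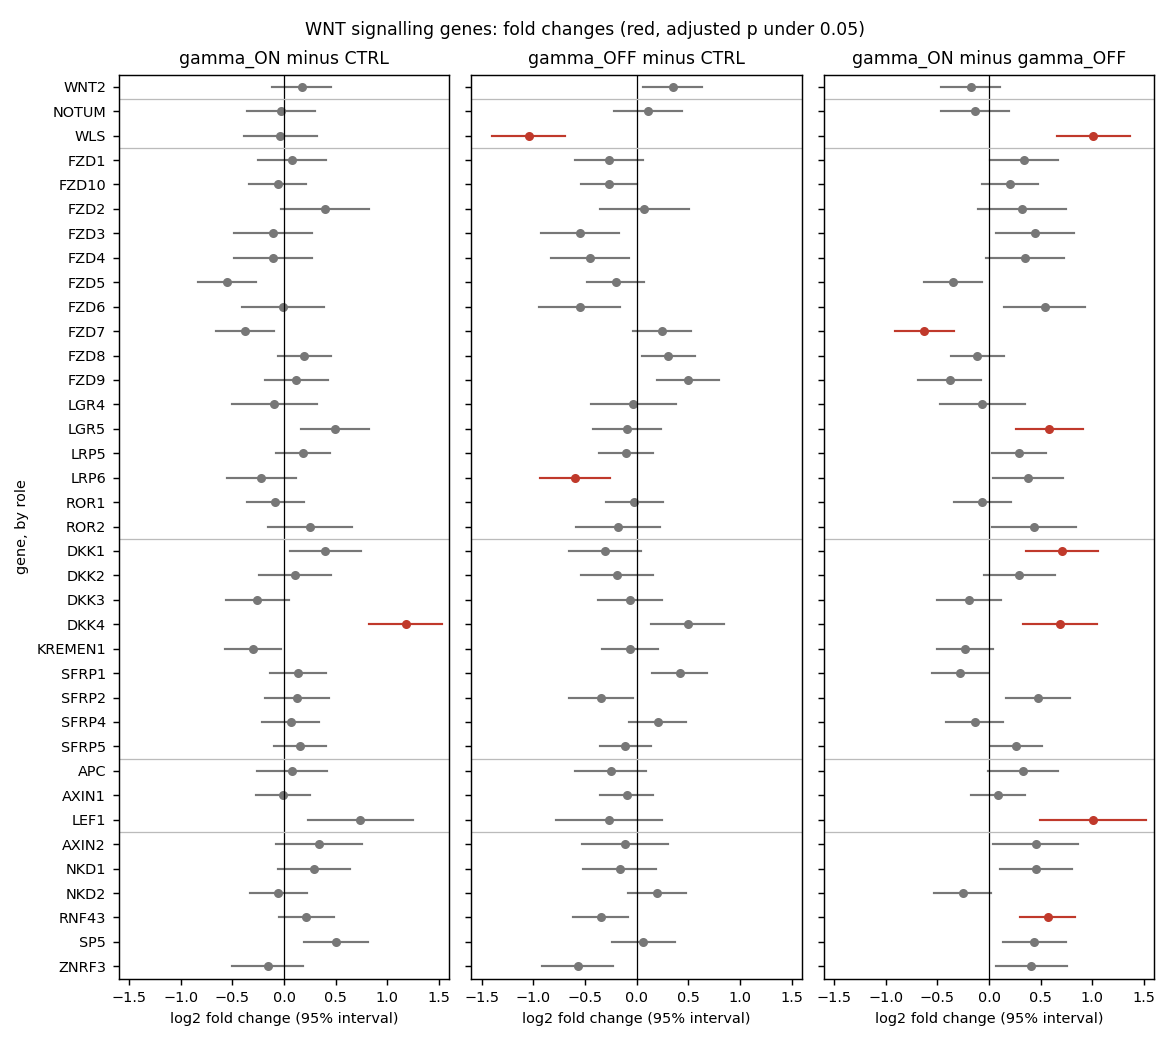
Log2 differences of the 37 WNT genes (rows, by role) for gamma_ON against CTRL, gamma_OFF against CTRL and gamma_ON against gamma_OFF (panels), each point with its 95% confidence interval from limma and red where the adjusted p was under 0.05. Red points number 1, 2 and 7 in the 3 panels, and DKK4 at 1.18 in the first and WLS at -1.04 in the second lie farthest from 0.

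The direction of all 37 genes was uneven in the comparisons with gamma_OFF. Against CTRL, 21 of 37 differences were positive in gamma_ON, with a median of 0.08 on the log2 scale, against 54.4% of all genes and a median of 0.02, so the share was near that of all genes (56.8% of the WNT genes). In gamma_OFF 11 of 37 differences from CTRL were positive, with a median of -0.11, against 51.9% of all genes and a median of 0.02. Between gamma_ON and gamma_OFF 24 of 37 were positive, with a median of 0.32, against 52.9% and 0.02 over all genes. Brighter genes as a whole leaned the same way. Of the 7442 genes at or above the median level of 7.12, 34.9% were positive for gamma_OFF against CTRL and 73.6% for gamma_ON against gamma_OFF, beside 25% and 62.5% of the 24 WNT genes at or above that level. The arrays of the 2 groups did not overlap for 23 of 37 WNT genes between gamma_ON and CTRL, where 52.4% of all genes did not overlap, for 24 between gamma_OFF and CTRL, beside 61.3%, and for 32 between gamma_ON and gamma_OFF, beside 63.3%.

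**Figure D2:**
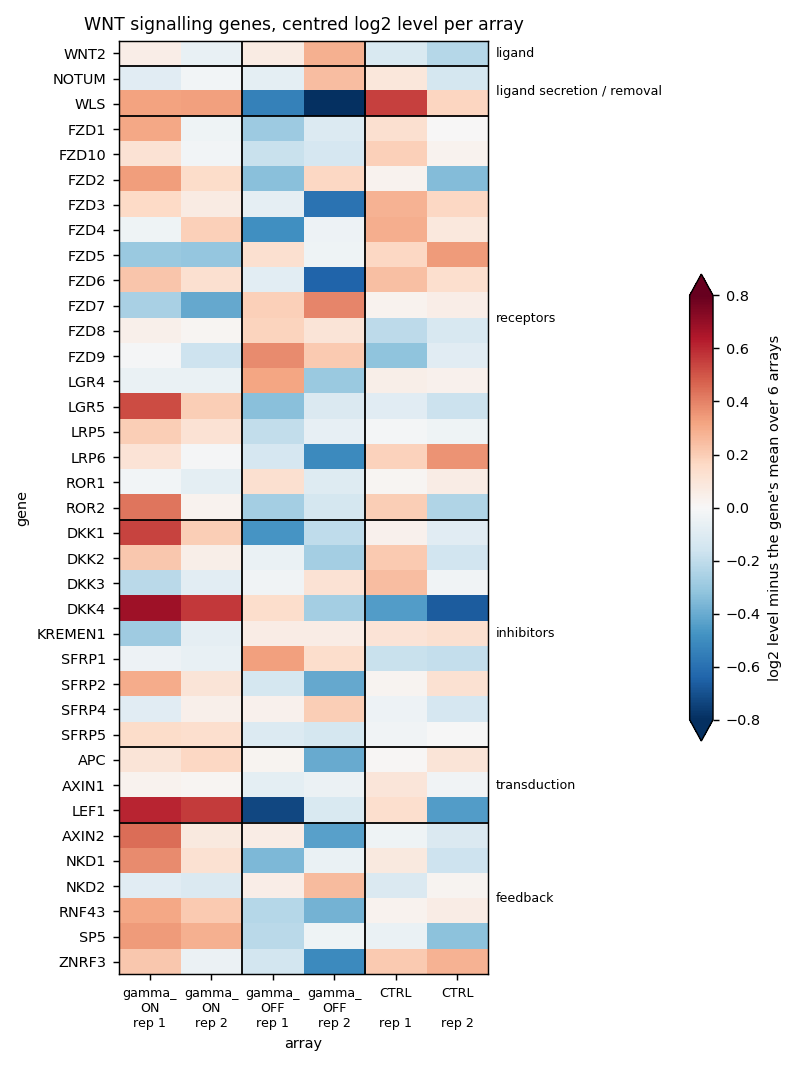
Log2 level of each of the 37 WNT genes on each of the 6 arrays, minus that gene's mean over the 6 arrays (colour scale, log2 units), with genes grouped by role and arrays in the order gamma_ON, gamma_OFF and CTRL. WLS is blue on both gamma_OFF arrays, while DKK4 is red on both gamma_ON arrays and blue on both CTRL arrays.

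WLS, the transmembrane carrier that escorts WNT ligands to the cell surface, had log2 levels of 8.83 and 8.83 in gamma_ON, 7.97 and 7.68 in gamma_OFF, and 9.05 and 8.68 in CTRL. Both gamma_OFF arrays lay below all 4 other arrays, while the gamma_ON values lay within the CTRL range. WLS was 2.06-fold lower in gamma_OFF than in CTRL, a log2 difference of -1.04 (95% CI -1.40 to -0.69, limma adjusted p = 0.00887). It was 2.01-fold higher in gamma_ON than in gamma_OFF, by 1.01 on the log2 scale (95% CI 0.65 to 1.36, adjusted p = 0.0142). Its difference between gamma_ON and CTRL was -0.04, with an interval of -0.39 to 0.32. The difference from CTRL kept its call without 5 of the 6 arrays in turn and lost it without CTRL replicate 1, at an adjusted p of 0.0643. The difference between the H2A.X vectors was lost without gamma_ON replicate 1 (adjusted p = 0.145), gamma_ON replicate 2 (0.0804) or gamma_OFF replicate 2 (0.0753). NOTUM, a secreted enzyme that removes the lipid from WNT ligands, was called in none of the 3 comparisons, with log2 differences from -0.14 to 0.11. The ligand WNT2 had log2 levels of 5.69 and 5.57 in gamma_ON, 5.70 and 5.92 in gamma_OFF, and 5.51 and 5.41 in CTRL. Every WNT2 value lay below the median of all rows on its array. Each gamma_ON and gamma_OFF array stood above both CTRL arrays, and its differences of 0.17 for gamma_ON and 0.35 for gamma_OFF against CTRL did not pass the test (adjusted p = 0.587 and 0.103).

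All 10 Frizzled receptors were measured, and 1 of them was called in 1 comparison. FZD7, a Frizzled receptor known for its high expression in human embryonic stem cells, had log2 levels of 9.56 and 9.41 in gamma_ON, 10.01 and 10.21 in gamma_OFF, and 9.85 and 9.87 in CTRL. The gamma_ON arrays were lowest, the gamma_OFF arrays highest and the CTRL arrays lay between them without overlap. FZD7 was 1.54-fold lower in gamma_ON than in gamma_OFF (log2 difference -0.63, 95% CI -0.91 to -0.34, adjusted p = 0.034). Neither vector passed the test against CTRL, at -0.38 for gamma_ON and 0.25 for gamma_OFF (adjusted p = 0.192 and 0.211).

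FZD5, a receptor for canonical WNT ligands, had log2 levels of 9.70 and 9.69 in gamma_ON, 10.13 and 9.96 in gamma_OFF, and 10.16 and 10.34 in CTRL. Both gamma_ON arrays lay below the other 4, and the gamma_OFF and CTRL arrays did not overlap, although 10.13 and 10.16 were close. The gamma_ON difference from CTRL, -0.56 with an interval of -0.84 to -0.28, was the most negative of the 37 in that comparison and missed the threshold (adjusted p = 0.0686). In the fit restricted to these groups it was called, with 487 genes called in all against 230 with every array.

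FZD3, a receptor with known roles in axon growth and planar polarity, had log2 levels of 9.52 and 9.43 in gamma_ON, 9.29 and 8.77 in gamma_OFF, and 9.64 and 9.52 in CTRL. FZD6, which also acts in planar polarity, had log2 levels of 8.997 and 8.90 in gamma_ON, 8.69 and 8.13 in gamma_OFF, and 9.01 and 8.91 in CTRL. For both genes the gamma_OFF arrays were the lowest and lay apart from each other, with replicate 2 furthest down. Their differences between gamma_OFF and CTRL were -0.55 for FZD3 (adjusted p = 0.0706) and -0.55 for FZD6 (adjusted p = 0.0775). FZD9 ran the other way, with log2 levels of 5.55 and 5.39 in gamma_ON, 5.94 and 5.77 in gamma_OFF, and 5.24 and 5.47 in CTRL. Both gamma_OFF arrays lay above the other 4, at 0.50 over CTRL, which just missed the threshold (adjusted p = 0.0513). Every FZD9 value lay below the median of all rows on its array. FZD8 had log2 levels of 8.26 and 8.24 in gamma_ON, 8.40 and 8.33 in gamma_OFF, and 8.02 and 8.10 in CTRL, with the CTRL arrays lowest and differences of 0.19 for gamma_ON and 0.31 for gamma_OFF (adjusted p = 0.475 and 0.108). The remaining Frizzled genes FZD1, FZD2, FZD4 and FZD10 differed from CTRL by -0.11 to 0.40 in gamma_ON and by -0.45 to 0.08 in gamma_OFF, none past the threshold. At an unadjusted p under 0.05, 2 Frizzled genes differed between gamma_ON and CTRL, 5 between gamma_OFF and CTRL and 6 between gamma_ON and gamma_OFF, of 10 genes each. Of all genes 14.8%, 30.4% and 33% did so in these comparisons, taken in the same order.

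LRP6, the co-receptor that binds AXIN once a WNT ligand has engaged, had log2 levels of 9.71 and 9.59 in gamma_ON, 9.46 and 9.09 in gamma_OFF, and 9.78 and 9.95 in CTRL. The CTRL arrays were highest, the gamma_OFF arrays lowest, and no groups overlapped. LRP6 was 1.51-fold lower in gamma_OFF than in CTRL (log2 difference -0.60, 95% CI -0.93 to -0.26, adjusted p = 0.0434). This call was lost on leaving out any array except gamma_OFF replicate 1, with adjusted p-values of 0.0765 without either gamma_ON array, 0.136 without gamma_OFF replicate 2, 0.128 without CTRL replicate 1 and 0.236 without CTRL replicate 2. Arrays were always left out 1 at a time. The call was also lost once every array was rescaled to 1 mean and SD (adjusted p = 0.0748). LRP5, its paralogue, differed from CTRL by 0.18 in gamma_ON and -0.10 in gamma_OFF, neither past the threshold.

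LGR5, a receptor for R-spondins and a target of the pathway in stem cells of several tissues, had log2 levels of 7.86 and 7.53 in gamma_ON, 7.001 and 7.22 in gamma_OFF, and 7.24 and 7.16 in CTRL. Both gamma_ON arrays lay above the other 4, and gamma_OFF replicate 2 lay between the CTRL values. LGR5 was higher in gamma_ON than in gamma_OFF by 0.58 on the log2 scale (95% CI 0.26 to 0.91, adjusted p = 0.0494), and this call was lost without any 1 of the 6 arrays, at adjusted p-values up to 0.319 without gamma_ON replicate 1. The adjusted p was 0.0872 without gamma_ON replicate 2, 0.0618 without gamma_OFF replicate 1, 0.0995 without gamma_OFF replicate 2 and 0.0878 without either CTRL array. Against CTRL the gamma_ON difference was 0.49 (adjusted p = 0.15). LGR4, another R-spondin receptor, gave log2 levels of 9.69 and 9.69 in gamma_ON, 10.06 and 9.45 in gamma_OFF, and 9.79 and 9.78 in CTRL. The gamma_OFF replicates of LGR4 enclosed all the other arrays and were 0.61 apart, the widest replicate gap among the 37 genes in that group. ROR1 and ROR2, receptor tyrosine kinases of the noncanonical branch, were called in none of the comparisons. Their largest log2 difference was 0.44, for ROR2 in gamma_ON against gamma_OFF (adjusted p = 0.132).

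Of the 9 inhibitors that act outside the cell, 2 were called, both of the DKK family, whose members DKK1, DKK2 and DKK4 bind LRP5 and LRP6. DKK4 had log2 levels of 7.22 and 7.11 in gamma_ON, 6.69 and 6.28 in gamma_OFF, and 6.10 and 5.88 in CTRL. The 3 groups did not overlap, with gamma_ON highest and CTRL lowest. Both CTRL values of DKK4 lay below the median of all rows on their arrays, 6.17 and 6.15. DKK4 was 2.26-fold higher in gamma_ON than in CTRL (log2 difference 1.18, 95% CI 0.82 to 1.53, adjusted p = 0.00869) and higher in gamma_ON than in gamma_OFF by 0.69 (95% CI 0.33 to 1.04, adjusted p = 0.0443). Its difference between gamma_OFF and CTRL, 0.49, missed the threshold (adjusted p = 0.0786). The gamma_ON call against CTRL was lost without gamma_ON replicate 1 (adjusted p = 0.115), gamma_ON replicate 2 (0.0756) or CTRL replicate 2 (0.103), with log2 differences of 1.12, 1.23 and 1.07. Against gamma_OFF the call was lost without every array but gamma_OFF replicate 1, with adjusted p-values of 0.29 without gamma_ON replicate 1, 0.111 without gamma_ON replicate 2, 0.133 without gamma_OFF replicate 2 and 0.0725 without either CTRL array. Endoderm markers were also highest in gamma_ON, as given above.

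DKK1, known as a LEF/TCF target, had log2 levels of 6.75 and 6.41 in gamma_ON, 5.74 and 6.01 in gamma_OFF, and 6.24 and 6.12 in CTRL. Both gamma_OFF values lay below the median of all rows on their arrays, 6.21 and 6.25. The gamma_ON arrays were highest, the gamma_OFF arrays lowest, and the CTRL arrays between them. DKK1 was higher in gamma_ON than in gamma_OFF by 0.71 on the log2 scale (95% CI 0.36 to 1.06, adjusted p = 0.0406). The call was lost on leaving out gamma_ON replicate 1 (adjusted p = 0.29), gamma_ON replicate 2 (0.076), gamma_OFF replicate 2 (0.0778) or either CTRL array (0.0696). Its differences from CTRL were 0.40 in gamma_ON and -0.31 in gamma_OFF (adjusted p = 0.264 and 0.209). DKK3, a family member with no settled role in WNT inhibition, and KREMEN1, the DKK co-receptor, were among the lowest of the 37 in gamma_ON against CTRL. DKK3 had log2 levels of 7.20 and 7.34 in gamma_ON, 7.39 and 7.54 in gamma_OFF, and 7.67 and 7.39 in CTRL, with both gamma_ON arrays below both CTRL arrays, a difference of -0.26 (adjusted p = 0.428). KREMEN1 had log2 levels of 7.08 and 7.29 in gamma_ON, 7.42 and 7.42 in gamma_OFF, and 7.47 and 7.49 in CTRL, and its gamma_ON arrays lay below the other 4, at -0.30 against CTRL (adjusted p = 0.291). DKK2 differed by at most 0.29, for gamma_ON against gamma_OFF.

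The SFRP genes encode secreted proteins that bind WNT ligands, and none of the 4 was called. SFRP1 had log2 levels of 10.55 and 10.53 in gamma_ON, 10.92 and 10.73 in gamma_OFF, and 10.41 and 10.40 in CTRL. Its gamma_OFF arrays were highest and its CTRL arrays lowest, and the difference of 0.42 between gamma_OFF and CTRL missed the threshold (adjusted p = 0.06, 95% CI 0.15 to 0.68). With rescaled arrays SFRP1 passed it. SFRP2 lay the other way, at -0.35 in gamma_OFF against CTRL (adjusted p = 0.126) and 0.48 in gamma_ON against gamma_OFF (adjusted p = 0.0672), while SFRP4 and SFRP5 differed by no more than 0.26 in any comparison. At an unadjusted p under 0.05, 0 SFRP genes differed between gamma_ON and CTRL, 2 between gamma_OFF and CTRL and 3 between gamma_ON and gamma_OFF, beside 14.8%, 30.4% and 33% of all genes.

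LEF1, a DNA-binding partner of β-catenin and itself a target of the pathway, had log2 levels of 7.46 and 7.41 in gamma_ON, 6.12 and 6.73 in gamma_OFF, and 6.98 and 6.41 in CTRL. Both gamma_ON arrays were above the other 4, and the gamma_OFF and CTRL arrays overlapped, with replicates far apart in both. On gamma_OFF replicate 1 LEF1 lay below the median of all rows, 6.21. LEF1 was 2.01-fold higher in gamma_ON than in gamma_OFF (log2 difference 1.01, 95% CI 0.50 to 1.52, adjusted p = 0.0429). The call was lost on leaving out gamma_ON replicate 1 (adjusted p = 0.28), gamma_ON replicate 2 (0.114), gamma_OFF replicate 1 (0.0521) or gamma_OFF replicate 2 (0.0505). Against CTRL the gamma_ON difference was 0.74, with an interval of 0.23 to 1.25 (adjusted p = 0.161). APC and AXIN1, the scaffolds of the destruction complex, were called in none of the comparisons. APC differed by 0.08 in gamma_ON and -0.25 in gamma_OFF against CTRL, and AXIN1 by -0.01 and -0.10 in the same order.

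Of the 6 feedback genes, RNF43 was called in 1 comparison and the other 5 in none. RNF43, a ubiquitin ligase that removes Frizzled receptors from the cell surface, had log2 levels of 7.42 and 7.32 in gamma_ON, 6.88 and 6.73 in gamma_OFF, and 7.14 and 7.17 in CTRL. The gamma_ON arrays were highest, the gamma_OFF arrays lowest, and the CTRL arrays between them. RNF43 was higher in gamma_ON than in gamma_OFF by 0.57 (95% CI 0.30 to 0.83, adjusted p = 0.0381). Leaving out gamma_ON replicate 1 (adjusted p = 0.28), gamma_ON replicate 2 (0.105), gamma_OFF replicate 2 (0.108) or either CTRL array (0.0728) ended the call. Its relative ZNRF3, with the same action on Frizzled receptors, had log2 levels of 8.34 and 8.08 in gamma_ON, 7.98 and 7.62 in gamma_OFF, and 8.34 and 8.41 in CTRL. Both gamma_OFF arrays of ZNRF3 lay below the other 4, and gamma_ON overlapped CTRL. The ZNRF3 difference between gamma_OFF and CTRL was -0.57 (95% CI -0.92 to -0.22) and just missed the threshold (adjusted p = 0.0513).

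SP5, a transcription factor that represses targets of the pathway, had log2 levels of 7.57 and 7.51 in gamma_ON, 7.01 and 7.20 in gamma_OFF, and 7.18 and 6.90 in CTRL. Both gamma_ON arrays were above the other 4, at 0.50 against CTRL (95% CI 0.20 to 0.81, adjusted p = 0.117) and 0.44 against gamma_OFF (adjusted p = 0.076), and neither difference passed the test. The DKK1 and SP5 windows with a motif match printed above thus belong to a gene that was called and a gene that was not. AXIN2, a destruction-complex scaffold widely used as a readout of β-catenin activity, had log2 levels of 9.34 and 8.97 in gamma_ON, 8.95 and 8.45 in gamma_OFF, and 8.85 and 8.77 in CTRL. The gamma_ON arrays were highest, with replicate 2 just above gamma_OFF replicate 1, and the gamma_OFF arrays enclosed the CTRL values. AXIN2 differed by 0.34 in gamma_ON against CTRL (95% CI -0.08 to 0.75, adjusted p = 0.441) and by 0.45 in gamma_ON against gamma_OFF (adjusted p = 0.128). NKD1 and NKD2 encode inhibitors that act on Dishevelled. NKD1 differed by 0.45 in gamma_ON against gamma_OFF (adjusted p = 0.0921), whereas NKD2, with log2 levels of 7.08 and 7.05 in gamma_ON, 7.22 and 7.42 in gamma_OFF, and 7.05 and 7.19 in CTRL, differed by -0.26 (adjusted p = 0.177). NKD2 was the sole feedback gene with a negative difference there, and the median of the 6 was 0.44.

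**Figure D3:**
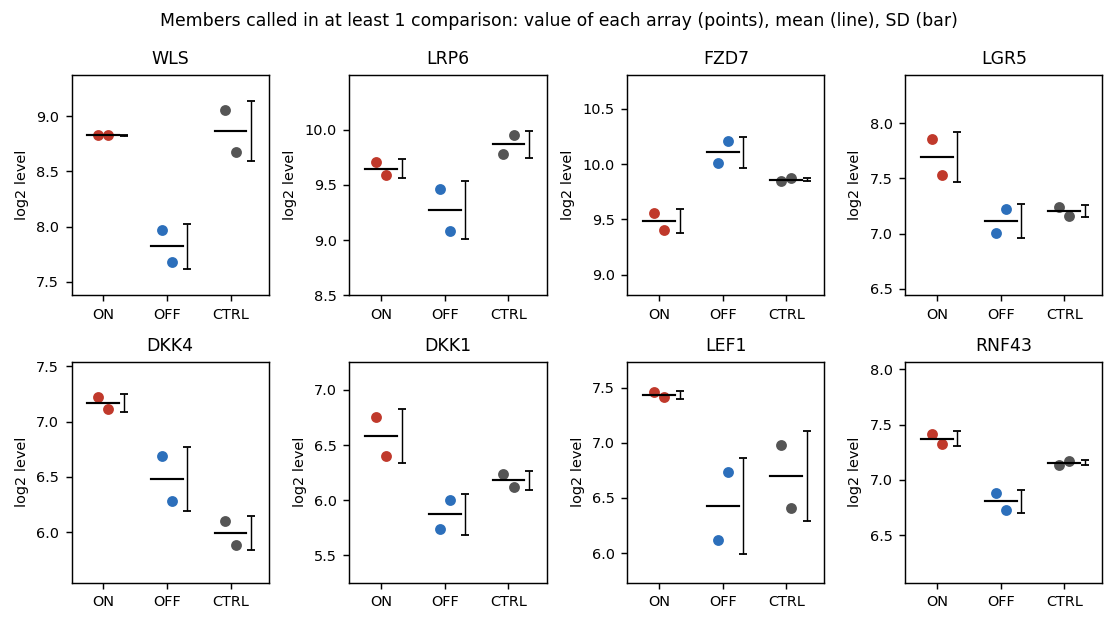
Log2 levels of the 8 WNT genes called in any comparison, 1 panel per gene, with 1 point per array for gamma_ON, gamma_OFF and CTRL, a line at the group mean and a bar of 1 SD (n = 2 arrays). Every y axis spans 2 log2 units; WLS and LRP6 are lowest in gamma_OFF, FZD7 is lowest in gamma_ON, and DKK4, DKK1, LEF1, LGR5 and RNF43 are highest in gamma_ON.

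The calls between gamma_ON and gamma_OFF depended on single arrays. Of the 7 called WNT genes, 0 were called by limma without gamma_ON replicate 1, 0 without gamma_ON replicate 2, 0 without gamma_OFF replicate 2 and 2, LEF1 and WLS, without either CTRL array. Without gamma_OFF replicate 1, 12 WNT genes were called, 5 of them among the 7. FZD7 lost its call in 5 of these fits, at adjusted p-values of 0.194 without gamma_ON replicate 1, 0.114 without gamma_ON replicate 2, 0.104 without gamma_OFF replicate 2 and 0.0659 without either CTRL array. Counts over all genes moved in the same fits, with 892 genes called on all arrays, 4061 without gamma_OFF replicate 1 and 49 without gamma_ON replicate 1. Each array was also rescaled to 1 mean and SD over genes, which changed the differences of all genes by a median of -0.03. On rescaled arrays 6 WNT genes were called between gamma_ON and gamma_OFF, beside 2.92% of all genes. The split of 6 higher and 1 lower became 3 higher (DKK1, RNF43 and WLS) and 3 lower (FZD5, FZD7 and SFRP1). In gamma_OFF against CTRL the split of 0 higher and 2 lower became 1 higher, SFRP1, and 1 lower, WLS, on rescaled arrays. There 6.48% of all genes were called.

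**Figure D4:**
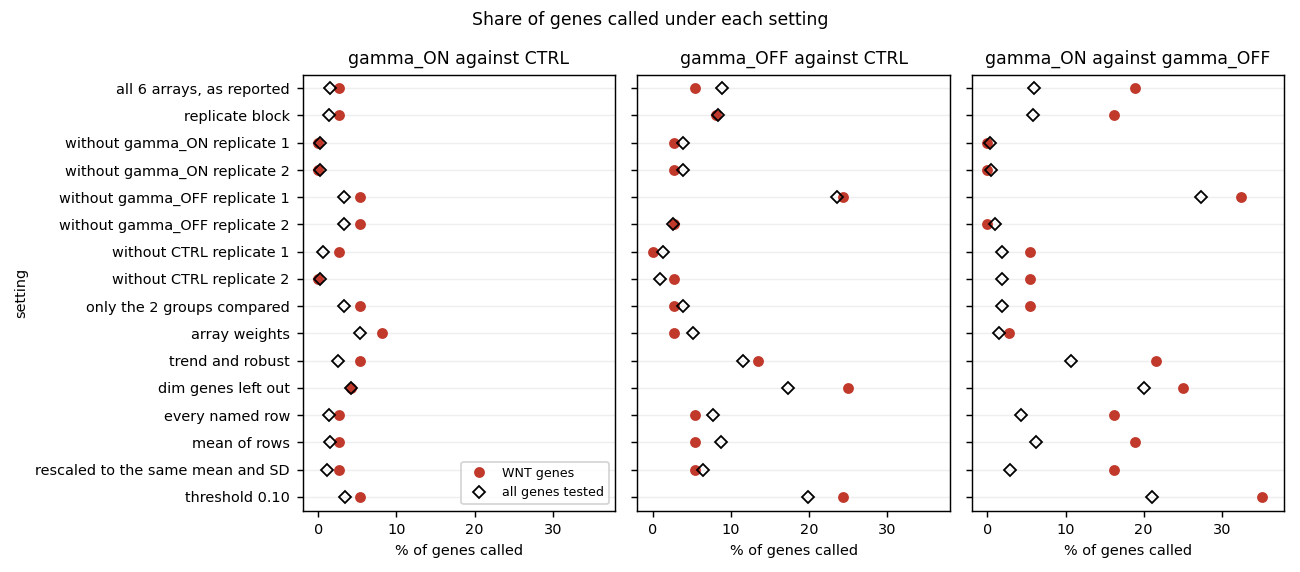
Percent of genes called for the WNT genes and for all genes tested (x axis, percent) under each setting of the fit (y axis), in 1 panel per comparison. Shares are of 37 WNT genes and 14884 genes, but of 24 and 7442 with dim genes left out. Gamma_ON against gamma_OFF spans 0 to 12 of 37 WNT genes over the fits without 1 array, and 13 pass at the threshold of 0.10.

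The wider pathway was read from 4 further lists, of which 24 of 44 genes of cytoplasmic and nuclear transduction, 26 of 29 extracellular modulators, 16 of 30 noncanonical genes and 30 of 37 genes responsive to β-catenin in pluripotent cells and the primitive streak were measured. Of the transduction genes, 0 were called between gamma_ON and CTRL (2 of 24 at an unadjusted p under 0.05, beside 14.8% of all genes). Of the 24, 3 fell in gamma_OFF against CTRL, where 6.08% of all genes were called lower, the β-catenin cofactors PYGO1 (-0.61) and TBL1XR1 (-0.72) and the AXIN deubiquitinase USP34 (-0.57). PYGO1 and TBL1XR1 were also the 2 called between gamma_ON and gamma_OFF, higher in gamma_ON by 0.68 and 0.72, where 3.98% of all genes were called higher. Without gamma_ON replicate 1, 1 of the 3 genes was called in gamma_OFF against CTRL and 0 of the 2 in gamma_ON against gamma_OFF, with the same counts without gamma_ON replicate 2 and without gamma_OFF replicate 2, and 0 of the 3 were called without either CTRL array. The list's median log2 differences were 0.02, 0.02 and 0.10 in gamma_ON against CTRL, gamma_OFF against CTRL and gamma_ON against gamma_OFF, beside 0.02, 0.02 and 0.02 over all genes.

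For the remaining lists the shares of all genes called are those already given, 1.55% in gamma_ON against CTRL, 8.85% in gamma_OFF against CTRL and 5.99% in gamma_ON against gamma_OFF. Among the extracellular modulators RSPO3, a ligand of the LGR receptors, had log2 levels of 7.63 and 7.83 in gamma_ON, 6.87 and 6.66 in gamma_OFF, and 7.91 and 7.67 in CTRL. Both gamma_OFF arrays lay below the other 4, 2.03-fold lower than CTRL (log2 difference -1.03, adjusted p = 0.00731), a call lost without CTRL replicate 1 (adjusted p = 0.0541). FRZB, a secreted WNT antagonist, was the other gene that fell there (-0.71, adjusted p = 0.0267), and its call was lost without any array but gamma_OFF replicate 1. GPC4, a cell-surface heparan sulphate proteoglycan, was the 1 gene of the list called in gamma_ON against CTRL, at -0.65 (adjusted p = 0.0476). That call was lost without either gamma_ON array or either CTRL array. Between gamma_ON and gamma_OFF, RSPO3 (0.97), FRZB (0.62) and GPC6 (0.54) were higher and GPC4 (-1.02) lower in gamma_ON, of which 0 were called without either gamma_ON array, 1 without gamma_OFF replicate 2 and 2 without either CTRL array. Of the noncanonical genes, CAMK2D, a calcium-dependent kinase, fell in gamma_OFF against CTRL (-1.03, adjusted p = 0.00679) and was higher in gamma_ON than in gamma_OFF by 0.91, the second call being lost without either gamma_ON array. The polarity gene INTU also fell in gamma_OFF against CTRL (-0.51), a call lost without any array but gamma_OFF replicate 1, and 0 of the 16 were called in gamma_ON against CTRL (3 at an unadjusted p under 0.05, beside 14.8% of all genes).

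The responsive genes held larger differences. Between gamma_ON and CTRL 5 of 30 rose, MIXL1 (1.95), HAND1 (1.59), EOMES (1.18), BMP4 (0.76) and NODAL (0.76), and LEFTY2 (-1.002) and JUN (-0.89) fell. MIXL1, a homeobox factor of the primitive streak, had log2 levels of 9.69 and 9.62 in gamma_ON, 7.97 and 8.43 in gamma_OFF, and 7.87 and 7.55 in CTRL. Both gamma_ON arrays stood above the other 4, and MIXL1 and HAND1 kept their calls against CTRL on leaving out each of the 6 arrays. Between gamma_OFF and CTRL, LEFTY2 rose (0.74), and JUN (-1.31), FST (-0.54) and CCND2 (-0.52) fell. Between gamma_ON and gamma_OFF 7 of 30 were higher and 2 lower in gamma_ON, led by EOMES (1.64) and LEFTY2 (-1.74), which kept their calls on leaving out each array in turn. Of the 7 genes called between gamma_ON and CTRL, 3 were called without either gamma_ON array and 3 without either CTRL array. Of the 4 called between gamma_OFF and CTRL, 2 were called without either gamma_ON array and 1 without gamma_OFF replicate 2 or either CTRL array. Of the 9 between gamma_ON and gamma_OFF, 3 were called without either gamma_ON array. Several of these genes also answer to NODAL and BMP signals, and MIXL1, EOMES and HAND1 mark mesoderm and endoderm, so their values stand beside the endoderm marker levels given above. The list's medians were 0.08, 0.12 and 0.10 in gamma_ON against CTRL, gamma_OFF against CTRL and gamma_ON against gamma_OFF. Counts over all genes also moved in the fits without 1 array. The counts of this and the other lists in those fits therefore do not show a loss particular to the lists.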

How the data were processed

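Total RNA of 6 H9 samples was measured on 1 array each, and groups and replicate numbers come from the sample labels. The deposited values are log2 levels per array row, and RMA and Partek 6.6 are named in the submitters' processing notes. Their order and options, the genome build and the annotation version were not given in the sources used. A platform annotation table named 16098 of 53617 rows with 1 gene each, and 0 rows with several, and left 37519 unnamed here. All 16098 gene identifiers matched RefSeq (GRCh38.p14). The row with the highest mean represented each of the 779 genes with several rows, which left 14884 genes.

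Differences were fitted with limma 3.58.1 in R 4.3.3 (lmFit, then eBayes with neither trend nor robust fitting) over all 6 arrays, with 3 residual and 6.05 prior degrees of freedom. The 3 contrasts were two-sided, with Benjamini-Hochberg adjustment over all genes and a threshold of 0.05. All adjusted p-values are limma's. The scripts were tested on simulated data. Full values are given for WNT genes called in any contrast, for the 5 highest and 5 lowest differences of each contrast, and for LEF1, AXIN2 and SP5. LGR4 was added after its values were seen, for the gap between its gamma_OFF arrays. The lists of the wider pathway are named by their called members, up to 6 a contrast by size, and the others beside small counts (NODAL, PYGO1, USP34, INTU, CCND2, FST and GPC6, and GPC4, FRZB, TBL1XR1, RSPO3 and CAMK2D where they were not among the 6) were chosen after their values were seen. The WNT genes and all lists were chosen with earlier results of these data known. Alternatives changed the arrays, the spread model, the filter on dim genes, the row rule, the scaling and the threshold. FZD4-DT and FZD10-AS1, other genes whose names begin alike, were left out.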

Additional observations from a re-analysis of the deposited data

How the results depend on the processing

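The 10 called differences of WNT genes kept their direction under each alternative that gave a value, which was largely fixed in advance. Their groups did not overlap, so leaving out 1 array could not reverse them. Of the other alternatives only the rescaling altered the size of these differences. With dim genes left out, 5 of the 10 had no value (DKK4 in both its comparisons, DKK1, LEF1 and RNF43). In gamma_ON against CTRL, 1 WNT gene was called on all arrays, 2 in a fit of these groups alone, 3 with array weights, 2 with trend and robust fitting, 2 at a threshold of 0.10, and 0 to 2 without 1 array. In gamma_OFF against CTRL, 2 were called, beside 1 in a fit of these groups alone, 1 with array weights, 5 with trend and robust fitting, 6 with dim genes left out, 9 at 0.10, and 0 to 9 without 1 array. In gamma_ON against gamma_OFF, 7 were called, beside 2 in a fit of these groups alone, 1 with array weights, 13 at 0.10, and 0 to 12 without 1 array. Leaving out dim genes, under a mean log2 level of 7.12, removed 13 WNT genes and left 24. The shares of all genes called also moved with the setting. In gamma_ON against CTRL they were 3.27% in the fit of these groups alone, 2.56% with trend and robust fitting and 3.41% at 0.10. In gamma_OFF against CTRL they were 3.81%, 11.6% and 19.8% in the same order, and 17.3% with dim genes left out. In gamma_ON against gamma_OFF they were 1.85% in the fit of these groups alone and 21% at 0.10. Over all genes the counts in the fits without 1 array spanned 34 to 487, 131 to 3515 and 49 to 4061, against 230, 1317 and 892 on all arrays, and array weights gave 803, 767 and 229. With the replicate block, 1, 3 and 6 WNT genes were called, ZNRF3 being added in gamma_OFF against CTRL and LGR5 lost in gamma_ON against gamma_OFF (adjusted p = 0.0551). Of all genes 1.41%, 8.36% and 5.85% were called with the block, in the same order. Whether same-numbered arrays shared a batch is not stated in the labels. Over all genes, their deviations from the group means correlated at -0.10 (CTRL with gamma_ON), -0.07 (CTRL with gamma_OFF) and 0.09 (gamma_ON with gamma_OFF). Over the WNT genes the correlations were 0.093, -0.445 and 0.041 in the same order. With 2 arrays a group, these values cannot decide whether a batch was shared. A fit that leaves 1 array in a group assumes that it varies like the other groups. With 2 arrays a group, differences that did not pass are not shown to be absent.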

Other observations

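The named rows next to the Frizzled genes gave no call. FZD10-AS1, a transcript antisense to the FZD10 locus, had log2 levels of 6.12 and 5.96 in gamma_ON, 6.26 and 6.46 in gamma_OFF, and 5.995 and 6.07 in CTRL. Its gamma_OFF arrays lay above the other 4, at 0.33 over CTRL on the log2 scale (limma adjusted p = 0.122), while FZD10 itself differed by -0.27 (adjusted p = 0.175). FZD4-DT, a transcript divergent from FZD4, differed by 0.01 between gamma_OFF and CTRL (adjusted p = 0.959), and FZD4 by -0.45 (adjusted p = 0.109).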
